A study of Mus musculus with 4 samples.

Results

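The proteasome subunit genes are the 42 genes, of 20457 genes with counts in all, whose symbols carry the proteasome prefixes Psma, Psmb, Psmc, Psmd, Psmf or Psmg followed by a number, without the immunoproteasome subunits Psmb8, Psmb9 and Psmb10. They were grouped by role into 8 genes of the alpha ring and 8 of the beta ring of the 20S core, 6 ATPases of the base of the 19S cap, 11 non-ATPase subunits of that cap, 7 assembly chaperones, the inhibitor Psmf1 and Psmc3ip. Psmc3ip carries a matching symbol but is known as a partner of meiotic recombination proteins and is no part of the particle, so it is given apart. All 42 genes passed the filter on low counts in each comparison.

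Spatial transcriptomes were recorded from fixed, paraffin-embedded sections of mouse brains into which a tumour had been inoculated and then resected, and the series asks how the tissue responds while the tumour grows back. The labels name 2 capture areas TREAT and 2 areas Vehicle, all at day 11, and the series' design text speaks of a group given a hydrogel and a group not given it. All 4 areas share the inoculation and the resection, and no area without a tumour was analysed here. Strain, age, sex and the inoculated tumour line are not given in the sources used here. In the assay, pairs of probes are hybridised to each transcript, ligated and captured on an array of barcoded spots, and unique molecular identifiers (UMIs) are counted for each gene in each spot. A spot is a small region that can hold several cells, so fewer cells of a type and less RNA per cell cannot be told apart in any level given here.

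The proteasome degrades proteins tagged with ubiquitin. Its barrel-shaped core has outer rings of alpha subunits, which gate the entrance, and inner rings of beta subunits, some of which cut peptide bonds. The cap recognises ubiquitin, removes it, unfolds the substrate with its ATPases and feeds it into the core, and dedicated chaperones build both parts. Transcription of many subunit genes is known to be raised together by Nfe2l1, which pairs with small Maf proteins on antioxidant response elements. Dividing cells and tumours depend on the particle, and neurons also use it at synapses.

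Promoter sequences are shown for 5 members, to show a letter pattern found in 15 of the 25 members with a promoter that were called higher in tumour spots. The bases are the 250 before the transcription start in RefSeq annotation of GRCm38.p6 (mm10), read on the gene's own strand, with capitals marking the patterns searched. Psmb3 (chr11:97703184-97703433, plus strand) encodes a core subunit with one of the larger differences of tumour over brain spots. Psmd12 (chr11:107479278-107479527, plus strand) encodes a lid subunit, and its promoter holds both forms of the pattern. Psmb5 (chr14:54617996-54618245, minus strand) and Psmb6 (chr11:70525107-70525356, plus strand) encode catalytic subunits. Psmd4 (chr3:95042615-95042864, minus strand), a ubiquitin receptor, was not called between tumour and brain spots and holds only the CCAAT box.
Psmb3: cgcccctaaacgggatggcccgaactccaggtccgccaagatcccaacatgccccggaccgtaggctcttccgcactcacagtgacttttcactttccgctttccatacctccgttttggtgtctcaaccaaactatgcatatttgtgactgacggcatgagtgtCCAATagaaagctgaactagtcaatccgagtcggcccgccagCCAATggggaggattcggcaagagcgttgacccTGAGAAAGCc
Psmd12: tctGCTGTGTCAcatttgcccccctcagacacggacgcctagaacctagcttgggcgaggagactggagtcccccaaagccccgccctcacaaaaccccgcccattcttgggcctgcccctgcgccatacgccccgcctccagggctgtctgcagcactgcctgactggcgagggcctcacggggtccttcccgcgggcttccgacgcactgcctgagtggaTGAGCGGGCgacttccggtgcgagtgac
Psmb5: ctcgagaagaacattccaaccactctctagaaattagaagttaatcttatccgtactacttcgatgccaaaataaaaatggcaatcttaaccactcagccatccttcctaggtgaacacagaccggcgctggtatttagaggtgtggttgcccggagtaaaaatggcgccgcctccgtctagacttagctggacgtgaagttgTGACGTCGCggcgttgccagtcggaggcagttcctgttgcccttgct
Psmb6: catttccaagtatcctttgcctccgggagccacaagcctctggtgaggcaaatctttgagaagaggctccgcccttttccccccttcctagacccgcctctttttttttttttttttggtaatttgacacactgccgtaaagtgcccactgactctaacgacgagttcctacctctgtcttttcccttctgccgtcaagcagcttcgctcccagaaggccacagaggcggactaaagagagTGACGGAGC
Psmd4: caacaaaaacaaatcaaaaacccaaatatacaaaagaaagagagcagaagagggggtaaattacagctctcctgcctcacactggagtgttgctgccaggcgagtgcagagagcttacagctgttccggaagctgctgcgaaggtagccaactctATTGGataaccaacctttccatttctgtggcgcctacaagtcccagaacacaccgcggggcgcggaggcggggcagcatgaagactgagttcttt

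The searched patterns were TGACNNNGC and TGAGNNNGC, which resemble the core of the antioxidant response element, and the CCAAT box, each on both strands of a window of 300 bases that adds 50 bases after the start. The searched window held a promoter for 34 of the 42 members. TGACNNNGC or TGAGNNNGC was present in 16 of these 34 members, against 27.8% of the 32851 promoters and 30.8% of the 27025 genes in the table. Of the 25 of these members called higher in tumour spots below, 15 held it, and of the 9 not called, 1 did. TGACNNNGC was present in 5 of 34 members (14.7%), against 12.4% of promoters and 14% of genes. TGAGNNNGC was present in 13 of 34 members (38.2%), against 17.6% of promoters and 19.8% of genes. CCAAT was present in 13 of 34 members, a share of 38.2%, against 37.4% of promoters and 41.1% of genes. A match of letters is a description and not a binding site, and the shares were not tested.

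Spots over tissue numbered 3352 and 3013 in TREAT and 3193 and 3488 in Vehicle, with 56150597 and 51081123 UMIs in TREAT and 34202695 and 45960125 UMIs in Vehicle. The median spot held 14986.5 and 12248 UMIs in TREAT and 7310 and 8377 UMIs in Vehicle. Spots were clustered without the members and without the other proteasome pathway genes, and 2 clusters formed the tumour spots through their summed level of 39 tumour marker genes. Cluster 5 supplied every TREAT tumour spot (191 and 553), and cluster 0 supplied all Vehicle tumour spots (856 and 1146) but 1, so TREAT against Vehicle within tumour spots largely set cluster 5 against cluster 0. Cluster 0 met the marker rule for the name, while cluster 5, led by Bst2, Tubb6 and Apobec3, had fewer than 3 tumour markers among its 50 leading genes and was added by the summed level after the clusters were seen. The tumour list summed to 10971.9 and 8672.2 counts scaled to a common library total (CPM) in TREAT and 10605.1 and 10664.8 CPM in Vehicle tumour spots, against 354.1 and 601.2 CPM in TREAT and 621.5 and 940.4 CPM in Vehicle brain spots. The 60 neuronal markers ran the other way, with 606.6 and 605.5 CPM in TREAT and 515.7 and 495.2 CPM in Vehicle tumour spots, against 16164.2 and 14984.9 CPM in TREAT and 16011.0 and 14812.5 CPM in Vehicle brain spots. Brain spots were the 11 clusters led by neuronal or white matter markers, 2629 and 2154 in TREAT and 1769 and 1522 in Vehicle. The series' design text speaks of a total of 4 animals, and the animal of each piece of tissue is not given. With 2 areas in a group, p-values of TREAT against Vehicle measure only the spread between these areas, which may be technical. Those of tumour against brain spots measure the spread of that difference over the 4 areas, which may be technical as well.

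The question of the first comparison was how subunit levels in tumour spots stand against those in brain spots of the same areas. Most core and cap subunits were called higher in tumour spots, and none was called lower. The test called 32 of 42 members higher and 0 lower at an adjusted p under 0.05, while it called 31.6% of all 19360 genes tested higher and 34.6% lower (edgeR quasi-likelihood F-test with the area as a block). DESeq2 called 33 members higher, against 30.1% of all genes, and 0 lower. The median log2 difference of tumour over brain spots was 0.65 over the members and 0.04 over all genes tested. Scaling by library totals in place of TMM scaling moved the all-gene median up by 0.21 and the members' median to 0.85, with 34 members called higher (37% of all genes), so the members' distance from all genes was 0.61 and 0.60.

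Summed over the 42 genes, the level in tumour spots was 9669.4 and 9374.8 CPM of the library total in TREAT and 8220.0 and 8285.7 CPM in Vehicle. The same sum in brain spots was 4019.8 and 4112.3 CPM in TREAT and 3975.2 and 4007.6 CPM in Vehicle. All 4 areas were thus higher in tumour than in brain spots, by 2.41-fold and 2.28-fold in TREAT and by 2.07-fold in each Vehicle area. Tumour spots were also deeper than brain spots, with median UMIs of 32856 and 36513 in TREAT and 21471.5 and 22671 in Vehicle tumour spots, against 14548 and 10644.5 in TREAT and 5338 and 5108.5 in Vehicle brain spots, and the part of depth in these levels was not tested. Levels of single genes below are CPM after TMM scaling, which differs between fits, so values of different comparisons are not on one scale. Since each gene has its own probes, levels were compared only within a gene.

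**Figure D1:**
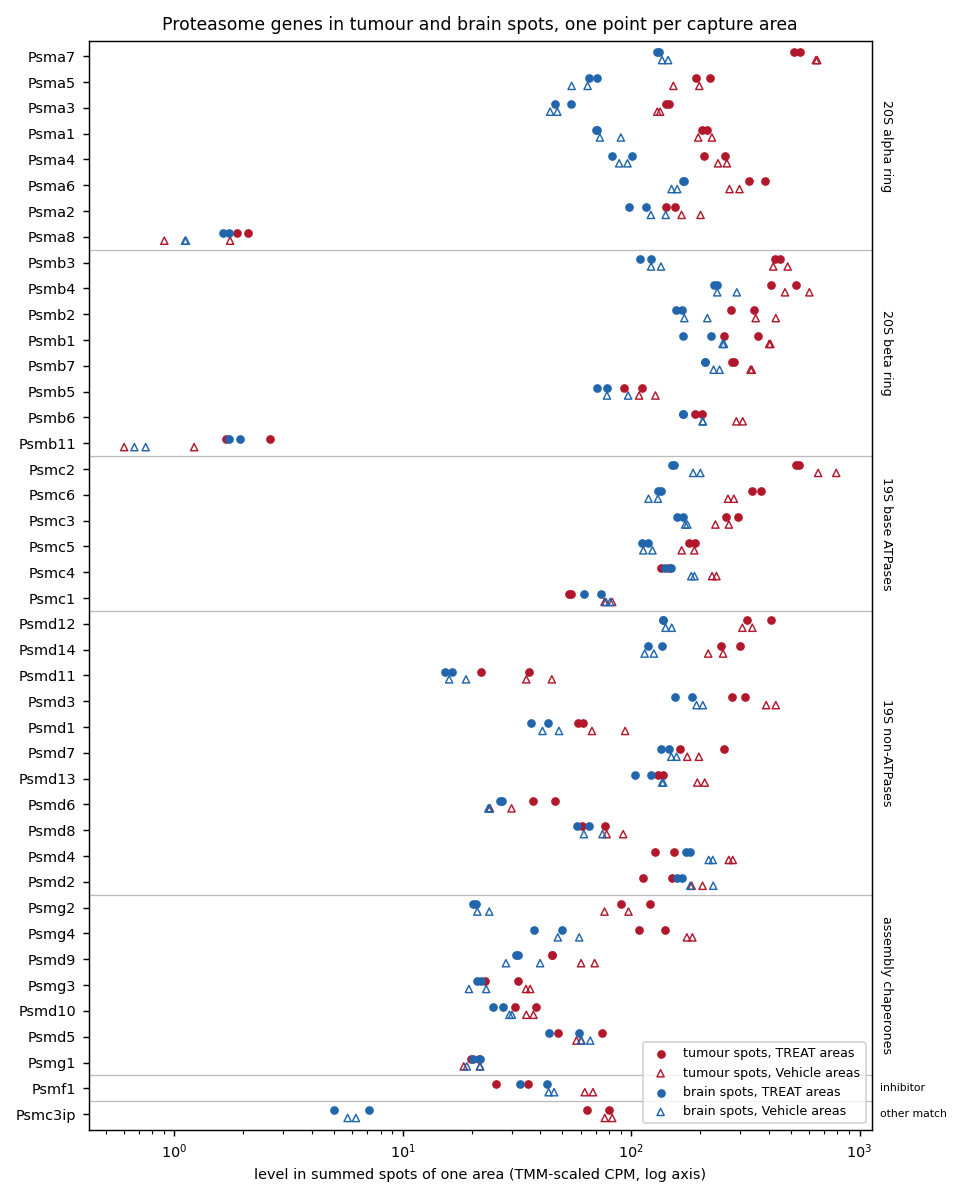
Level of each of the 42 genes (CPM after TMM scaling, log axis), by role, in tumour spots (red) and brain spots (blue) of the 2 TREAT areas (filled circles) and the 2 Vehicle areas (open triangles). Red and blue points are far apart for genes such as Psma7, Psmb3, Psmc2, Psmg2 and Psmc3ip and overlap for genes such as Psmc1, Psmd2 and Psmg1.

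The alpha ring showed the largest summed fold of the core and cap roles, at 3.36 and 3.18 in TREAT and 2.77 and 2.95 in Vehicle for tumour over brain spots. Of its 8 genes, 7 were called higher and the median log2 difference was 1.43. Psma7 (ENSMUSG00000027566, chromosome 2, 180036367 to 180042464), one of its subunits, had 518 and 547 CPM in TREAT tumour spots and 644 and 652 CPM in Vehicle tumour spots, against 129 and 132 CPM in TREAT brain spots and 136 and 145 CPM in Vehicle brain spots. Every tumour value lay above every brain value, and the log2 difference was 2.12 ± 0.11 (SE, adjusted p = 4.38e-07).

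Psma3, another ring subunit, had 146 and 142 CPM in TREAT tumour spots and 134 and 130.1 CPM in Vehicle tumour spots, against 46.5 and 54.4 CPM in TREAT brain spots and 44.2 and 47.5 CPM in Vehicle brain spots. Psma5 had 222 and 192 CPM in TREAT tumour spots and 153 and 199 CPM in Vehicle tumour spots, against 65.3 and 71.0 CPM in TREAT brain spots and 54.8 and 64.4 CPM in Vehicle brain spots. Both were without overlap between tumour and brain spots, with log2 differences of 1.52 ± 0.10 (adjusted p = 2.25e-06) and 1.58 ± 0.11 (adjusted p = 2.34e-06). Psma1, Psma4, Psma6 and Psma2 were called higher with log2 differences of 1.48, 1.39, 0.97 and 0.48. Psma8, a ring subunit known from the testis, lay between 0.903 and 2.11 CPM in all tumour and brain sums and was not called (log2 difference 0.23 ± 0.24, adjusted p = 0.419).

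Among the beta ring genes, 7 of 8 were called higher, with a median log2 difference of 0.56. Structural subunits had the larger differences and catalytic subunits the smaller ones, and the difference between these kinds was not tested. Psmb3 (ENSMUSG00000069744, chromosome 11, 97703434 to 97713500), a subunit without catalytic activity, had 425 and 449 CPM in TREAT tumour spots and 419 and 484 CPM in Vehicle tumour spots, against 109 and 123 CPM in TREAT brain spots and 122 and 135 CPM in Vehicle brain spots. Its tumour values were all above its brain values, by 1.86 ± 0.10 on the log2 scale (adjusted p = 7.01e-07).

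Psmb2, also without catalytic activity, had 275 and 343 CPM in TREAT tumour spots and 429.7 and 351 CPM in Vehicle tumour spots, against 158 and 166 CPM in TREAT brain spots and 216 and 171 CPM in Vehicle brain spots. Psmb4, which helps to join the core's rings during assembly, had 525 and 408 CPM in TREAT tumour spots and 603 and 472 CPM in Vehicle tumour spots, against 232 and 237 CPM in TREAT brain spots and 290.1 and 238 CPM in Vehicle brain spots. Both groups of spots were apart for each gene, by 0.97 ± 0.10 (adjusted p = 4.33e-05) and 1.00 ± 0.11 (adjusted p = 5.74e-05). Psmb1, which sits beside Psmb5 in the ring, was higher by 0.66 ± 0.10 (adjusted p = 0.000359).

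The catalytic subunits of the constitutive core are Psmb5, which cuts after hydrophobic residues, Psmb6, which cuts after acidic residues, and Psmb7, which cuts after basic residues. Psmb5 had 111 and 92.7 CPM in TREAT tumour spots and 108 and 128 CPM in Vehicle tumour spots, against 78.5 and 71.1 CPM in TREAT brain spots and 78.3 and 97.0 CPM in Vehicle brain spots. Psmb6 had 191 and 205 CPM in TREAT tumour spots and 289 and 308 CPM in Vehicle tumour spots, against 169 and 168 CPM in TREAT brain spots and 206 and 206 CPM in Vehicle brain spots. In all 4 areas the tumour value of both genes was above the brain value of the same area, while values of different areas overlapped.

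Psmb7 had 278 and 281 CPM in TREAT tumour spots and 333 and 337 CPM in Vehicle tumour spots, against 210.0 and 209.8 CPM in TREAT brain spots and 244 and 229 CPM in Vehicle brain spots, with no overlap. The log2 differences were 0.44 ± 0.10 for Psmb5 (adjusted p = 0.00333), 0.38 ± 0.11 for Psmb6 (adjusted p = 0.0147) and 0.46 ± 0.10 for Psmb7 (adjusted p = 0.00337), and all were called higher. The promoters of Psmb5 and Psmb6 printed above both hold TGACNNNGC, which 14.7% of members with a promoter and 14% of all genes held. No promoter was available for Psmb7. Psmb11, the catalytic subunit known from the cortical epithelium of the thymus, stayed between 0.602 and 2.63 CPM and was not called (adjusted p = 0.518).

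Of the 6 base ATPases, which unfold the substrate, 4 were called higher and their median log2 difference was 0.63. Psmc2 (ENSMUSG00000028932, chromosome 5, 21785275 to 21803787) had 542 and 529 CPM in TREAT tumour spots and 790.4 and 659 CPM in Vehicle tumour spots, against 150.5 and 155 CPM in TREAT brain spots and 201 and 187 CPM in Vehicle brain spots. Psmc6 had 369 and 338 CPM in TREAT tumour spots and 265 and 282 CPM in Vehicle tumour spots, against 135 and 131 CPM in TREAT brain spots and 131 and 119 CPM in Vehicle brain spots. For both, the lowest tumour value was above the highest brain value, and the log2 differences were 1.85 ± 0.11 (adjusted p = 8.33e-07) and 1.27 ± 0.11 (adjusted p = 1.35e-05).

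Psmc5 and Psmc3 were called higher by 0.63 ± 0.10 and 0.64 ± 0.11. The other two ATPases did not pass the test. Psmc4 had 136 and 146 CPM in TREAT tumour spots and 236 and 226 CPM in Vehicle tumour spots, against 141 and 149 CPM in TREAT brain spots and 189 and 183 CPM in Vehicle brain spots (adjusted p = 0.326). Psmc1 had 54.6 and 53.6 CPM in TREAT tumour spots and 82.6 and 76.4 CPM in Vehicle tumour spots, against 73.7 and 62.1 CPM in TREAT brain spots and 80.9 and 77.5 CPM in Vehicle brain spots (adjusted p = 0.255). In both genes the tumour and brain values overlapped, and Psmc4 had tumour values above brain values in both Vehicle areas and in neither TREAT area under TMM scaling, but in 4 of 4 areas under library totals.

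The non-ATPase subunits of the cap had the smallest summed fold among core and cap, at 1.95 and 1.72 in TREAT and 1.69 and 1.61 in Vehicle. Of these 11 genes, 8 were called higher and the median log2 difference was 0.41. Psmd12 (ENSMUSG00000020720, chromosome 11, 107479528 to 107498036), a scaffold subunit of the lid, had 409.9 and 322 CPM in TREAT tumour spots and 339 and 307 CPM in Vehicle tumour spots, against 138 and 138 CPM in TREAT brain spots and 150.4 and 141 CPM in Vehicle brain spots. Psmd14, the deubiquitinase that strips ubiquitin chains from the substrate, had 299 and 247 CPM in TREAT tumour spots and 217 and 252 CPM in Vehicle tumour spots, against 118 and 137 CPM in TREAT brain spots and 114 and 126 CPM in Vehicle brain spots. Tumour and brain values were apart for both, with log2 differences of 1.27 ± 0.12 (adjusted p = 1.58e-05) and 1.03 ± 0.12 (adjusted p = 6.15e-05).

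Psmd3, a lid scaffold subunit, had 276 and 316 CPM in TREAT tumour spots and 429.7 and 390.0 CPM in Vehicle tumour spots, against 155 and 185 CPM in TREAT brain spots and 206 and 193 CPM in Vehicle brain spots, a difference of 0.92 ± 0.11 without overlap (adjusted p = 7.36e-05). The lid scaffold Psmd11 and the base scaffold Psmd1 were called higher by 1.00 and 0.72, and the lid subunits Psmd13, Psmd7 and Psmd6 each by 0.41. Psmd8, another lid subunit, missed the threshold (0.23 ± 0.10, adjusted p = 0.0687), as did Psmd2, a scaffold of the base that docks shuttle factors (-0.20 ± 0.12, adjusted p = 0.176).

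Psmd4 (ENSMUSG00000005625, chromosome 3, 95032688 to 95042614), a subunit that binds ubiquitin chains, had 127 and 154 CPM in TREAT tumour spots and 268 and 278 CPM in Vehicle tumour spots, against 174 and 180.5 CPM in TREAT brain spots and 218 and 228 CPM in Vehicle brain spots. Its tumour values were below its brain values in both TREAT areas, at log2 ratios of -0.46 and -0.23, and above them in both Vehicle areas, at 0.29 in each, while under library totals the ratios were -0.18 and 0.09 in TREAT and 0.39 in each Vehicle area. The joint difference was -0.02 ± 0.15 (adjusted p = 0.905).

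Among the genes of the particle and its assembly, the chaperone Psmg2 had the largest difference in value. Psmg2, which pairs with Psmg1 to start the alpha ring, had 121 and 90.1 CPM in TREAT tumour spots and 97.3 and 76.4 CPM in Vehicle tumour spots, against 20.9 and 20.4 CPM in TREAT brain spots and 23.9 and 21.2 CPM in Vehicle brain spots. Psmg4, which pairs with Psmg3 in the same task, had 108 and 141 CPM in TREAT tumour spots and 175 and 185 CPM in Vehicle tumour spots, against 37.5 and 49.6 CPM in TREAT brain spots and 47.7 and 59.2 CPM in Vehicle brain spots. Tumour and brain values did not overlap in either gene, and the log2 differences were 2.15 ± 0.13 (adjusted p = 1.39e-06) and 1.64 ± 0.11 (adjusted p = 2.12e-06).

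The partners were at other values. Psmg3 was called higher by 0.52 ± 0.15 (adjusted p = 0.0127), whereas Psmg1 had 21.6 and 19.9 CPM in TREAT tumour spots and 18.5 and 21.8 CPM in Vehicle tumour spots, against 20.3 and 21.7 CPM in TREAT brain spots and 21.8 and 19.1 CPM in Vehicle brain spots, and was not called (-0.02 ± 0.13, adjusted p = 0.893). Of the chaperones of the base, Psmd9 was called higher by 0.72 ± 0.13 (adjusted p = 0.00106) and Psmd10 by 0.34 ± 0.11 (adjusted p = 0.0202), while Psmd5 was not called (0.07 ± 0.11, adjusted p = 0.637). In all, 5 of 7 chaperones were higher, with a median of 0.52.

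Psmf1 (ENSMUSG00000032869, chromosome 2, 151716062 to 151744199), named for its inhibition of the core in vitro, had 25.7 and 35.3 CPM in TREAT tumour spots and 68.0 and 62.6 CPM in Vehicle tumour spots, against 32.7 and 43.0 CPM in TREAT brain spots and 45.9 and 43.5 CPM in Vehicle brain spots. As for Psmd4, its tumour values were below its brain values in TREAT (log2 ratios of -0.35 and -0.28) and above them in Vehicle (0.57 and 0.53), while under library totals the ratios were -0.08 and 0.03 in TREAT and 0.67 and 0.63 in Vehicle. It was not called between tumour and brain spots (0.12 ± 0.18, adjusted p = 0.601).

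Psmc3ip (ENSMUSG00000019303, chromosome 11, 101092141 to 101095435), which shares only the symbol pattern, had 79.6 and 64.0 CPM in TREAT tumour spots and 76.6 and 82.6 CPM in Vehicle tumour spots, against 5.0 and 7.08 CPM in TREAT brain spots and 6.23 and 5.73 CPM in Vehicle brain spots. Every tumour value was far above every brain value, and its log2 difference of 3.65 ± 0.16 was the largest of the 42 genes (adjusted p = 2.09e-07).

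**Figure D2:**
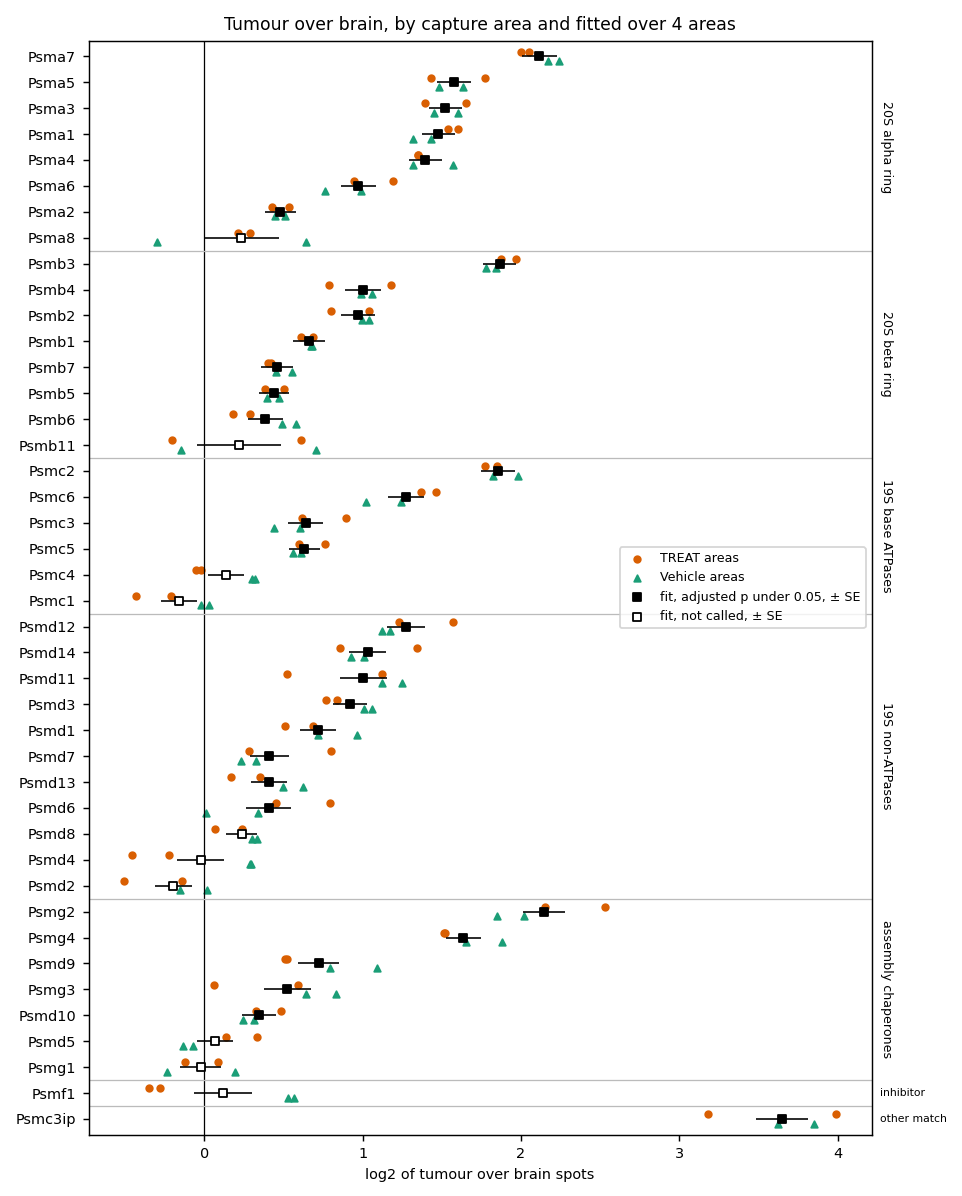
Log2 ratio of tumour over brain spots for each gene in the 2 TREAT areas (circles) and the 2 Vehicle areas (triangles), with the fitted difference and its SE (black squares, filled where the adjusted p is under 0.05). Values of 33 genes lie above 0 in 4 of 4 areas under TMM scaling, and Psmf1 and Psmd4 have TREAT areas below 0 and Vehicle areas above 0, where under library totals TREAT 2+3 turns to 0.03 and 0.09.

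Taking the areas one by one, 33 of 42 genes under TMM scaling and 34 under library totals were higher in tumour than in brain spots in 4 of 4 areas, against 34.4% and 39.7% of all genes tested. Of the 42 genes 27 (64.3%) were higher without overlap between the 4 tumour and the 4 brain values, against 25% of all genes tested. All 27 were among the 32 genes called higher. The other 5 called genes (Psmd13, Psmd6, Psmb5, Psmb6 and Psmg3) were higher within each area but overlapped across areas. The 10 genes not called all overlapped.

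Genes that work with the proteasome were read from lists. Of 8 immune and activator subunits, which replace cutting subunits or cap the core in place of the 19S cap, 7 were called higher in tumour spots and 1 lower, with a median log2 difference of 3.22. Psmb8, the interferon-induced replacement of Psmb5, had 1150.0 and 1419 CPM in TREAT tumour spots and 1600.0 and 1846 CPM in Vehicle tumour spots, against 26.8 and 75.8 CPM in TREAT brain spots and 66.5 and 120.3 CPM in Vehicle brain spots, which was 4.54 ± 0.26 without overlap (adjusted p = 7.3e-07). Psmb10, which replaces Psmb7, was higher by 2.89 ± 0.12 (adjusted p = 1.31e-07) and Psme2b by 3.62 ± 0.15 (adjusted p = 1.33e-07). Psme2 and Psme2b are near-identical copies of an activator subunit, so their split is uncertain, and Psme2 was called lower (-0.83 ± 0.17, adjusted p = 0.00218). The replaced catalytic genes Psmb5, Psmb6 and Psmb7 differed by at most 0.46 on the same scale, each against its own brain level.

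Of 14 listed symbols of accessory proteins, which include older names of listed genes, 11 were tested, 6 were called higher and 2 lower. Txnl1, a thioredoxin-like protein bound to the cap, was higher by 1.35 ± 0.10 and Ube3c, a ubiquitin ligase on the proteasome, by 0.97 ± 0.10, while Usp14, a deubiquitinase on the proteasome, was lower (-0.34 ± 0.10, adjusted p = 0.0203), without a call under library totals (-0.14, adjusted p = 0.327). Zfand2a, the other accessory gene called lower (-0.51 ± 0.12, adjusted p = 0.00504), kept its call under library totals (-0.31, adjusted p = 0.0325). Among 8 regulators of subunit transcription, 5 were higher and 2 lower. Nfe2l1 itself had 164 and 175 CPM in TREAT tumour spots and 217 and 226 CPM in Vehicle tumour spots, against 249 and 265 CPM in TREAT brain spots and 266 and 268 CPM in Vehicle brain spots, and was called lower (-0.44 ± 0.11, adjusted p = 0.00827), a call lost under library totals (-0.24, adjusted p = 0.0523). Ngly1, the enzyme that removes its sugars, was also lower (-0.67 ± 0.14). Nfe2l2, a related factor of the oxidative stress response, had 232 and 148 CPM in TREAT tumour spots and 260.0 and 271 CPM in Vehicle tumour spots, against 51.9 and 52.1 CPM in TREAT brain spots and 65.4 and 81.5 CPM in Vehicle brain spots, and was called higher (1.85 ± 0.13, adjusted p = 3.29e-06), with the small Maf genes Maff (3.20 ± 0.25) and Mafk (1.27 ± 0.15). Of 14 listed symbols of ubiquitin supply and shuttling, likewise with an older name among them, 12 were tested, 4 were higher and 5 lower. Beside each of these lists stands the share over all genes tested, 31.6% called higher and 34.6% lower. The shuttle factor Ubqln2 was lower (-1.85 ± 0.10, adjusted p = 6.63e-07) and the shuttle factor Rad23b higher (1.12 ± 0.11, adjusted p = 2.14e-05).

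Within the brain, the summed level of the 42 genes was nearly even over clusters. It ran between 3711.4 CPM of the library total in cluster 3, led by myelin genes, and 4408.4 CPM in cluster 12, led by hypothalamic neuropeptide genes, over the 11 brain clusters with all areas pooled. Choroid plexus spots (cluster 17) had 3390.2 CPM. For 39 of the genes the highest brain cluster was between 1.14 times (Psmd13) and 2.04 times (Psmd5) the lowest. Psmc3ip (4.05 times), Psmb11 (6.32 times) and Psma8 (7.0 times) spread more, with medians of 5.57, 1.38 and 1.49 CPM over those clusters. The clusters hold unlike shares of the 4 areas, and no test was made of them.

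Outside the brain clusters, cluster 5 had 9444.3 CPM and cluster 0 had 8259.8 CPM. Cluster 8, led by immunoglobulin genes by fold and kept out of both regions, had 7683.6 and 8068.3 CPM in TREAT and 7874.9 and 7552.9 CPM in Vehicle, so its groups overlapped. The tumour list summed to 9701.1 CPM in cluster 8. Cluster 13, with reactive glial and complement genes such as Gfap, Serpina3n and C4b, had 4036.4 and 4748.0 CPM in TREAT and 3660.2 and 3946.9 CPM in Vehicle. The tumour list was at 4936.5 and 4287.6 CPM in TREAT and 4094.7 and 4677.2 CPM in Vehicle in cluster 13, which was far above its brain level and below its tumour level.

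With distance from the tumour spots, the members' summed level was at its brain level within a few spot steps. In tumour spots, then 1, 2 and 3 steps away, it was 9669.4, 7778.5, 4840.2 and 4091.3 CPM in TREAT 1+4 and 9374.8, 8039.9, 5160.7 and 4439.8 CPM in TREAT 2+3. Over the same steps it was 8220.0, 8072.7, 6279.7 and 4128.3 CPM in Vehicle 1+4 and 8285.7, 7874.1, 7251.3 and 5630.0 CPM in Vehicle 2+3. At 2 steps both Vehicle areas were above both TREAT areas, and at 3 steps Vehicle 2+3 alone stood apart. From 4 steps on, all 4 areas lay between 3769.6 and 4257.2 CPM.

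The tumour list moved over the same steps, with 4208.2 and 4898.2 CPM in TREAT and 7687.3 and 9208.7 CPM in Vehicle at 2 steps. At 3 steps it had 1816.4 and 2740.2 CPM in TREAT and 2781.4 and 6307.8 CPM in Vehicle, so the area with the most tumour marker RNA there was the area with the highest member level. In TREAT 1+4 the tumour list was at 1345.3 CPM 20 or more steps away, above its 403.5 CPM at 10 to 19 steps, and the members there were at 4240.8 and 3990.1 CPM. The part of tumour cells mixed into neighbouring spots in these levels was not tested.

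**Figure D3:**
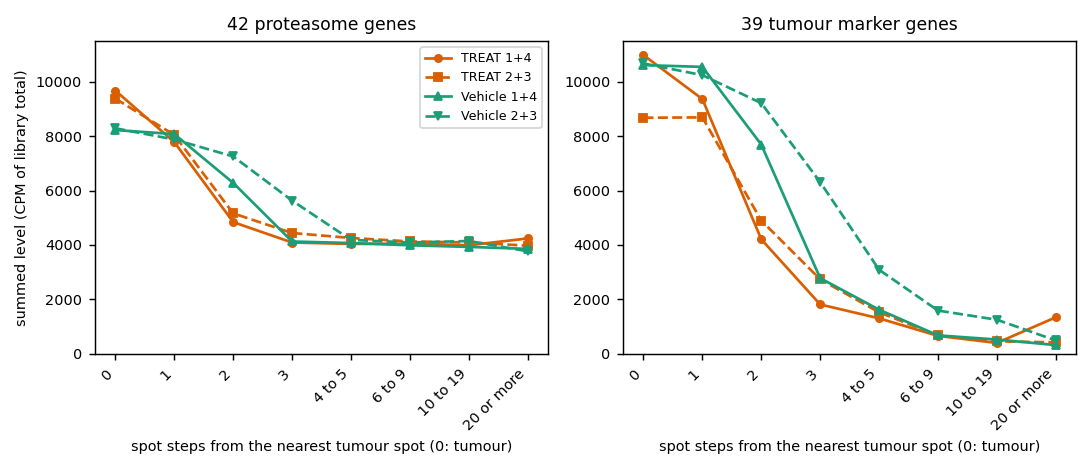
Summed level of the 42 genes (left) and of the 39 tumour markers (right), in CPM of the library total, against the distance in spot steps from the nearest tumour spot (0 is the tumour spots), for the 2 TREAT and the 2 Vehicle areas. The members are between 8220.0 and 9669.4 CPM at 0 steps and between 3769.6 and 4257.2 CPM from 4 steps on, and the tumour markers are lower at each further step up to 4, except in TREAT 2+3 at 1 step (8685.1 CPM, against 8672.2 CPM at 0 steps).

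The second comparison, which the labels set, was TREAT against Vehicle. Over the whole tissue most members were at lower values in TREAT, and none passed the test. edgeR called 0 of 42 members higher and 0 lower, against 1.11% of all 20265 genes higher and 5.67% lower, with 18 members at an unadjusted p under 0.05. DESeq2 called 11 lower, against 13.9% of all genes, and 0 higher, and the edgeR fit without TREAT 2+3 called 21 lower, against 17.6% of all genes. The members' median log2 difference was -0.56, with 39 genes below 0, against 0.13 over all genes. Library totals moved the all-gene median up by 0.34 and the members' median to -0.22, and called 0 members, against 14.4% of all genes higher and 3.38% lower. Of all called genes 16.3% were higher under TMM scaling and 81% under library totals. With genes of at least 10 CPM the distance was smaller, at a median of -0.33 over 40 members and -0.02 over all genes. In that edgeR fit 2 members were at an unadjusted p under 0.05.

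The summed level of the members over the whole tissue was 4830.3 and 6373.9 CPM of the library total in TREAT and 6578.4 and 7091.0 CPM in Vehicle, with TREAT 1+4 the lowest. The number of tumour spots moved with this order, at 191 and 553 in TREAT and 856 and 1147 in Vehicle. Psmc2 had 195 and 334 CPM in TREAT, against 583 and 543 CPM in Vehicle, a log2 difference of -1.09 ± 0.32 (adjusted p = 0.0642). Psmf1 had 28.5 and 38.8 CPM in TREAT, against 60.9 and 58.2 CPM in Vehicle, -0.82 ± 0.24 (adjusted p = 0.0658). In both genes the Vehicle areas were above the TREAT areas. The part of the tumour spots in these levels was not tested.

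In other roles, Psma7 had 178 and 331 CPM in TREAT, against 464 and 527 CPM in Vehicle (adjusted p = 0.0873). Psmb1 had 223 and 211 CPM in TREAT, against 357 and 382 CPM in Vehicle (adjusted p = 0.0759). Psmg4 had 49.4 and 95.9 CPM in TREAT, against 132 and 161 CPM in Vehicle (adjusted p = 0.076). None of these groups overlapped, as in 73% of all genes tested, and none passed. Psmc3ip had 16.8 and 35.5 CPM in TREAT, against 51.9 and 64.4 CPM in Vehicle, at -1.15 ± 0.35 the largest difference in size (adjusted p = 0.0674). At the other end, Psmb11, Psma8 and Psmd6 were the genes above 0, at 0.85, 0.30 and 0.12. Of the immune and activator genes, Psme2b (-2.06 ± 0.26, adjusted p = 0.0288) and Psme4 (-1.22 ± 0.28, adjusted p = 0.0437) were called lower, as were the regulators Mafg and Nfe2l2 (-1.27 ± 0.26 and -1.13 ± 0.24). Under library totals Psme4 (adjusted p = 0.0515) and Nfe2l2 (adjusted p = 0.0503) lost the call and Psme2b and Mafg did not.

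Within tumour spots, the inhibitor Psmf1 and the ubiquitin receptor Psmd4 were lower in TREAT and the lid subunit Psmd6 was higher, under both scalings used. Under TMM scaling 10 of 42 members were called lower and 1 higher, while 18.2% of all 19493 genes were called lower and 14.1% higher. Under library totals the members' calls turned to 2 lower (7.18% of all genes) and 12 higher (41.4%), and the all-gene median moved up by 0.43. Of all called genes 43.6% were higher under TMM scaling and 85.2% under library totals. The members' median was -0.25 against 0.09 over all genes under TMM scaling and 0.19 against 0.52 under library totals, so that it lay 0.34 and 0.33 below all genes. Relative to the all-gene median 31 of 42 members lay below it under TMM scaling and 30 under library totals, which move all genes alike. With genes of at least 10 CPM this turned, at a members' median of 0.06 against 0.01 over all genes and 18 of 40 members below the all-gene median, so no direction is given for the members as a group.

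Psmf1 had 26.2 and 38.6 CPM in TREAT, against 74.7 and 67.2 CPM in Vehicle. The Vehicle areas were clearly above the TREAT areas, with a log2 difference of -1.11 ± 0.20 (adjusted p = 0.00109) and of -0.68 under library totals (adjusted p = 0.0112). Psmd4 had 129.6 and 169 CPM in TREAT, against 294 and 299 CPM in Vehicle. Its groups were likewise apart, with a log2 difference of -0.99 ± 0.18 (adjusted p = 0.00123) and of -0.56 under library totals (adjusted p = 0.0171).

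Psmd6 (ENSMUSG00000021737, chromosome 14, 14112185 to 14120945) had 47.4 and 40.7 CPM in TREAT, against 26.4 and 32.1 CPM in Vehicle. Both TREAT values were above both Vehicle values, by 0.58 ± 0.19 (adjusted p = 0.0313) and by 1.01 under library totals (adjusted p = 0.00277). The call of Psmd6 was lost without TREAT 1+4 (adjusted p = 0.0855), without Vehicle 1+4 (0.351) and without Vehicle 2+3 (0.0723), and by DESeq2 (0.0803). In cluster 8, a cluster with tumour markers that held spots of all 4 areas, 1 of 40 members was called. This was Psmd4, at -0.60 (adjusted p = 0.025), while Psmf1 was at -0.57 (adjusted p = 0.0839). Of all 13436 genes tested in cluster 8, 762 were called lower and 255 higher. Its white matter markers were at 4740.2 and 6937.8 CPM in TREAT and 2364.3 and 3256.4 CPM in Vehicle, without overlap. Its tumour list overlapped between the groups, and the part of this mixture was not tested.

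**Figure D4:**
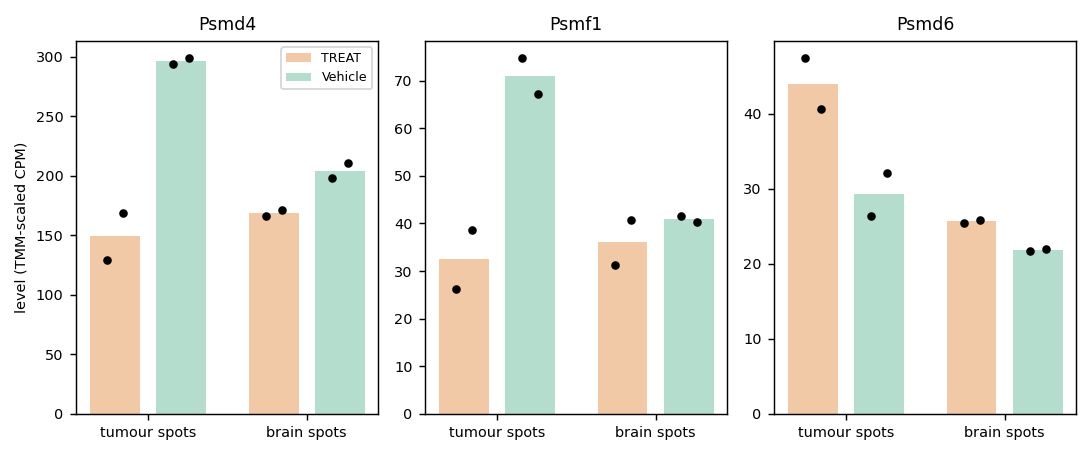
Level of Psmd4, Psmf1 and Psmd6 (CPM after TMM scaling) in tumour and brain spots, TREAT left of Vehicle, with bars for the mean and points for the 2 areas of each group. Psmd4 and Psmf1 are lower in TREAT tumour spots and Psmd6 is higher there, while the brain bars lie closer together. That difference between tumour and brain spots did not pass the edgeR test. Tumour and brain bars come from separate fits with their own scaling, so heights are compared only within tumour or within brain spots.

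The other 8 members called lower under TMM scaling lost the call under library totals and stayed below 0. Among the ATPases Psmc4 had 139 and 159.8 CPM in TREAT, against 259 and 242 CPM in Vehicle, -0.75 ± 0.17 (adjusted p = 0.00561), and -0.31 under library totals (adjusted p = 0.116). Psmc1 was lower, with a log2 difference of -0.59 ± 0.17 (adjusted p = 0.0193), and was at -0.16 without a call under library totals. Both had TREAT values below Vehicle values without overlap. Psmc2, the ATPase with the largest difference between tumour and brain spots, had 554 and 578 CPM in TREAT, against 868 and 706 CPM in Vehicle, and was not called (-0.48 ± 0.19, adjusted p = 0.0615). Psmc6 had 378 and 369 CPM in TREAT, against 291 and 302 CPM in Vehicle, without overlap and without a call (0.33 ± 0.17, adjusted p = 0.14), and was called higher under library totals (0.77, adjusted p = 0.00494).

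Of the non-ATPases, Psmd13 had 135 and 151 CPM in TREAT, against 230.4 and 209 CPM in Vehicle, at -0.62 ± 0.17 (adjusted p = 0.0149). Psmd2 had 154 and 123 CPM in TREAT, against 202 and 220.3 CPM in Vehicle, at -0.61 ± 0.18 (adjusted p = 0.019), and Psmd3 was at -0.50 ± 0.18 (adjusted p = 0.0463). None of these was called under library totals, at -0.19, -0.18 and -0.07. The deubiquitinase Psmd14 had 306 and 270.0 CPM in TREAT, against 239 and 271 CPM in Vehicle, which overlapped, and was called higher under library totals only (0.61, adjusted p = 0.0127).

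In the beta ring the catalytic Psmb6 was the gene called, with 195 and 224 CPM in TREAT, against 317 and 330.2 CPM in Vehicle (-0.63 ± 0.18, adjusted p = 0.0154), and with -0.19 and no call under library totals. The other catalytic genes were not called. Psmb5 had 114 and 101 CPM in TREAT, against 119 and 137 CPM in Vehicle (adjusted p = 0.257). Psmb7 had 284 and 307 CPM in TREAT, against 366 and 362 CPM in Vehicle (adjusted p = 0.182). The TREAT values of both lay below their Vehicle values under TMM scaling, while the differences under library totals were 0.18 for Psmb5 and 0.13 for Psmb7. Thymic Psmb11 had 2.69 and 1.84 CPM in TREAT, against 0.661 and 1.31 CPM in Vehicle, at few UMIs, and was called under library totals only (1.49, adjusted p = 0.0158).

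No alpha ring gene was called under TMM scaling, with 0 of 8 at an unadjusted p under 0.05 and a median log2 difference of 0.02. Psma7, the alpha gene with the largest tumour level over brain, had 530.2 and 598 CPM in TREAT, against 707 and 699.8 CPM in Vehicle (-0.32 ± 0.18, adjusted p = 0.177). Psma6 had 393 and 359 CPM in TREAT, against 296 and 319.6 CPM in Vehicle (0.29 ± 0.18, adjusted p = 0.2). The TREAT values of Psma7 lay below its Vehicle values and those of Psma6 above, neither past the threshold, and under library totals Psma7 was at 0.11, on the other side of 0, while Psma6, Psma5 and Psma3 were called higher under library totals.

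Among the chaperones Psmd9 had 46.2 and 49.1 CPM in TREAT, against 75.9 and 64.7 CPM in Vehicle (-0.56 ± 0.18, adjusted p = 0.0285). Psmg4 had 110.2 and 154 CPM in TREAT, against 192 and 199 CPM in Vehicle (-0.56 ± 0.19, adjusted p = 0.032). Both were lower without overlap, and neither was called under library totals (-0.12 and -0.13). Psmg2, with the largest difference between tumour and brain spots, had 124 and 98.4 CPM in TREAT, against 107 and 81.9 CPM in Vehicle, with overlap (adjusted p = 0.337), and was called higher under library totals (0.67, adjusted p = 0.00985). Psmc3ip was not called (-0.19 ± 0.17, adjusted p = 0.386), and was at 0.24 under library totals. In 26 of 42 members (61.9%) the TREAT and Vehicle values did not overlap under TMM scaling, against 73% of all genes tested. Of the 42 members 11 were called, all of them among these 26, while 32.3% of all genes tested were called in either direction.

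**Figure D5:**
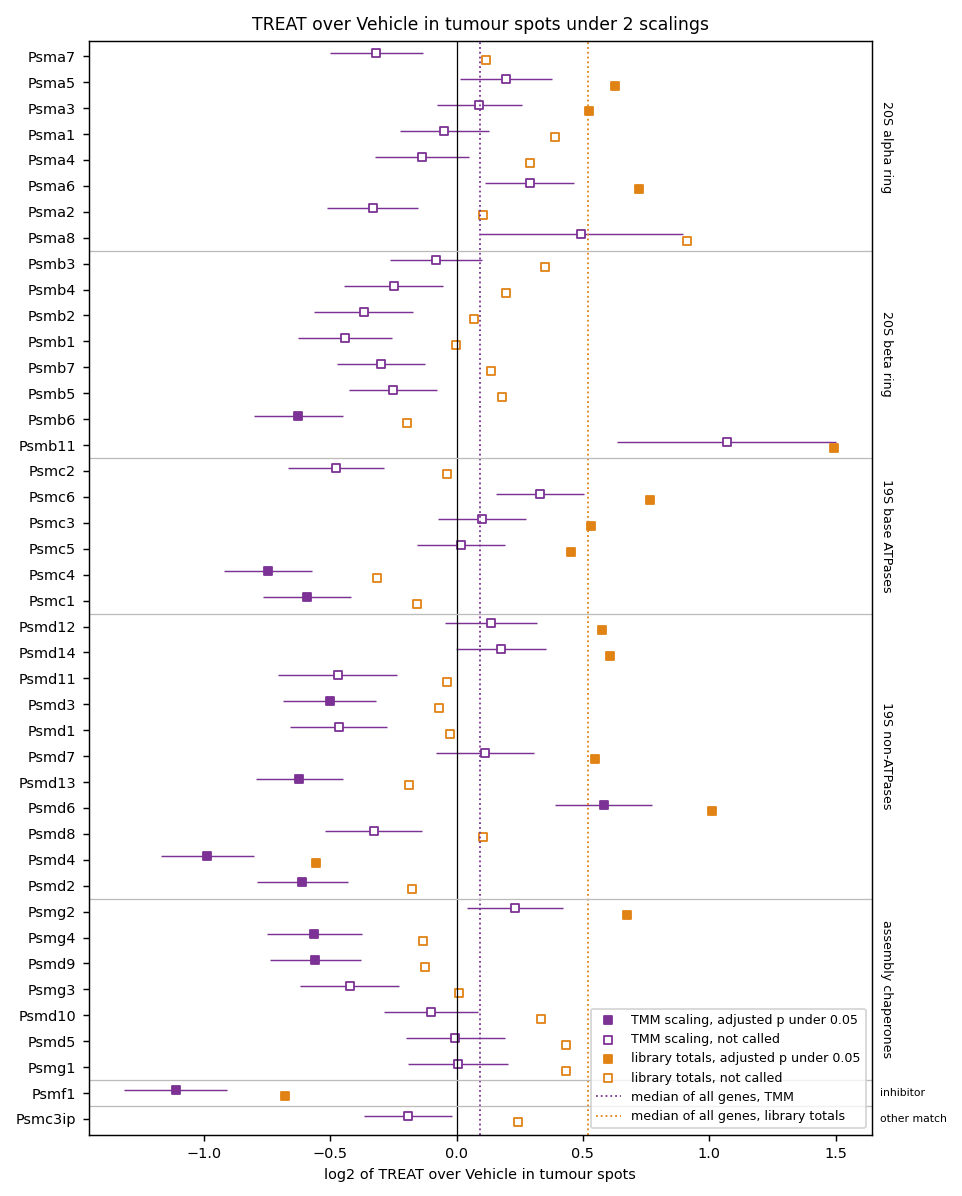
Log2 difference of TREAT over Vehicle in tumour spots for each gene under TMM scaling (with its SE) and under library totals, with dotted lines at the all-gene medians of 0.09 and 0.52. Psmd4 and Psmf1 are below 0 and Psmd6 above 0 under both scalings, while genes between them lie on different sides of 0 by scaling.

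Marker lists in tumour spots also differed in value between the groups. The tumour list had 10971.9 and 8672.2 CPM in TREAT and 10605.1 and 10664.8 CPM in Vehicle, the macrophage list 1645.1 and 1192.2 CPM in TREAT and 1295.8 and 1615.6 CPM in Vehicle, and both overlapped. Choroid plexus and ependyma markers had 197.6 and 116.1 CPM in TREAT and 56.2 and 43.9 CPM in Vehicle, and neuronal markers 606.6 and 605.5 CPM in TREAT and 515.7 and 495.2 CPM in Vehicle, both with TREAT values above Vehicle values. B and plasma cell markers had 58.9 and 45.7 CPM in TREAT and 36.0 and 32.7 CPM in Vehicle, likewise above, while endothelium markers had 144.9 and 204.2 CPM in TREAT and 219.5 and 219.1 CPM in Vehicle, with TREAT below. All genes of these lists were above 0 in each area except Cfap206, of the choroid plexus and ependyma list, in Vehicle 1+4. Their part in the members' differences was not tested.

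The pathway lists held calls in the same comparison, in which 18.2% of all genes were called lower and 14.1% higher. Of the immune and activator genes 2 were lower, Psme4 (-0.99 ± 0.19, adjusted p = 0.00146) and Psme2b (-1.03 ± 0.22, adjusted p = 0.0029), and both stayed below 0 under library totals (-0.55 and -0.59). Of the regulators 5 of 8 were lower, led by the small Maf gene Mafg with 154 and 198 CPM in TREAT, against 436 and 369 CPM in Vehicle (-1.19 ± 0.19, adjusted p = 0.000371), which was also lower under library totals (-0.76, adjusted p = 0.00583). Maff, Mafk, Nfe2l2 and Ddi2, the protease that activates Nfe2l1, were the others, with no call under library totals. Nfe2l1 had 168 and 191 CPM in TREAT, against 238 and 242 CPM in Vehicle, and was not called (adjusted p = 0.0702, with a log2 difference of 0.02 under library totals). Adrm1, a ubiquitin receptor of the cap, was higher at low levels, with 8.61 and 6.25 CPM in TREAT, against 2.91 and 4.21 CPM in Vehicle (1.01 ± 0.30, adjusted p = 0.0204). Sem1, a small lid subunit outside the symbol pattern, was lower (-0.81 ± 0.19, adjusted p = 0.00561). Ufd1, Ubqln4 and Vcp, of the ubiquitin supply list, were lower as well. These genes and Sem1 stayed below 0 without a call under library totals.

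In brain spots no member was called between TREAT and Vehicle. edgeR called 0 members in either direction and 0% of all 19297 genes, with 4 members and 3878 of all genes at an unadjusted p under 0.05, and DESeq2 called 0 members, against 0.333% of all genes higher and 2.84% lower. The members' median log2 difference was -0.10 under TMM scaling and 0.05 under library totals, and 0.11 below that of all genes under both, which move all genes alike. With genes of at least 10 CPM the distance was gone, at 0.0068 over the 39 members tested and 0.0035 over all genes. The groups held the brain clusters in unlike shares, such as cluster 15 with 206 and 154 of its 361 spots in TREAT. Limited to brain clusters with at least 20 spots in every area, edgeR called 0 members and 0 of 18201 genes. Median UMIs per brain spot were 14548 and 10644.5 in TREAT and 5338 and 5108.5 in Vehicle, and the part of depth was not tested. Psmb11 had 1.65 and 1.84 CPM in TREAT, against 0.605 and 0.692 CPM in Vehicle (1.42 ± 0.36, adjusted p = 0.157), at few UMIs. Psmc4 had 134 and 141 CPM in TREAT, against 172 and 169.6 CPM in Vehicle (-0.31 ± 0.12, adjusted p = 0.218, and -0.16 under library totals). Psmd4 had 166 and 171 CPM in TREAT, against 198 and 210.5 CPM in Vehicle (-0.28 ± 0.12, adjusted p = 0.249), so its TREAT values were below its Vehicle values in brain spots also, without passing the test, at -0.13 under library totals.

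Whether the TREAT difference itself differed between tumour and brain spots was tested as an interaction. No member passed: edgeR called 0 of 42 members and 0% of all 20014 genes, with 4 members at an unadjusted p under 0.05. The nearest were Psmf1, with an interaction of -0.86 ± 0.16 on the log2 scale (adjusted p = 0.0686), and Psmd4, with -0.63 ± 0.16 (adjusted p = 0.102). Both negative values say that TREAT was further below Vehicle in tumour than in brain spots. Psmc4 was at -0.35 ± 0.15 (adjusted p = 0.251). DESeq2 called Psmf1 and Psmd4 lower (adjusted p = 0.0156 and 0.0423), against 2.57% of all genes. Under library totals edgeR called neither, at -0.665 (adjusted p = 0.108) and -0.436 (adjusted p = 0.193). Their interaction thus lay on either side of the threshold by choice of fit. With each area left out in turn, it ran from -0.94 to -0.84 for Psmf1 and from -0.79 to -0.53 for Psmd4.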

How the data were processed

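UMI counts per gene and spot were used as deposited: the authors made these raw counts with Space Ranger 2.1.1 on mm10, and R 4.4.1 and Seurat are also named, per the submitters' processing notes. Of 32589 features, 304 with deprecated identifiers were left out. The analysis kept 13003 spots lying over tissue and holding 500 UMIs or more. Clusters were made from 20376 genes without proteasome pathway genes (2000 variable genes, 30 components, 15 neighbours, Leiden resolution 0.6; Python 3.11.15 with scanpy 1.11.5, igraph 0.11.9 and leidenalg 0.10.2); spots can hold several cells, and no doublet caller was run. The marker rule named only cluster 0 a tumour cluster, so after seeing the clusters tumour spots were redefined as clusters with at least 50% of the highest summed tumour marker level that had no more top genes by fold of another class.

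Counts were summed per area and region (at least 20 spots) and tested with edgeR 4.0.16 (limma 3.58.1, R 4.3.3; quasi-likelihood F-test, TMM, filterByExpr, Benjamini-Hochberg over all genes, threshold 0.05). SEs were derived from the fold change and F. Tumour and brain sums were fitted with the area as a block. Alternatives were DESeq2 1.42.0, library totals, other filters, resolutions and regions, replicate blocks and leaving out each area. Areas shared 2285 to 2751 spot barcodes, which belong to the array layout, and no pair of areas agreed within sampling noise (chi-square per gene of at least 43.98). The fits were tested on simulated counts.

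Named genes were, by role and comparison, up to 3 members in each direction with the smallest p, plus the catalytic, ubiquitin-handling and tissue-restricted members; some others were named after their values were seen. A result for the ubiquitin supply list in tumour spots is not reported here in full. The members and lists were chosen with earlier results of these data known. Gene positions and promoters came from RefSeq tables of GRCm38.p6. The sources used here do not explain the numbers in the area names.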

Additional observations from a re-analysis of the deposited data

Results flagged for a closer look

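Spots outside the tissue, which no comparison used, held UMIs of the members above the limit that a count of 0 allows. They had 5.84 and 7.75 member UMIs per spot in TREAT (1640 and 1979 spots) and 6 and 8.65 in Vehicle (1787 and 1504 spots), while spots over tissue had 80.3 and 107.1 in TREAT and 69.8 and 92.5 in Vehicle. As a share of their own UMIs the members stood at 4276.1 and 5277.8 CPM off tissue in TREAT and at 5484.6 and 5816.5 CPM in Vehicle, in the same order of areas as over tissue.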

How the results depend on the processing

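Between tumour and brain spots, 27 to 35 members were called higher and 0 lower under every alternative run (27 to 32 when one area was left out). The 32 called members kept their direction in all of them, 27 with their call. Over all genes, 4866 to 7157 were called higher and 4594 to 6828 lower under these alternatives, of 11253 to 20450 tested. For TREAT against Vehicle over the whole tissue (0 members), DESeq2 called 11 lower, the fit with the replicate number as a block 21 lower and 1 higher, and leaving out one area 0 to 21 lower and 0 higher, with 21 lower without TREAT 2+3. In tumour spots (1 higher and 10 lower), the members called higher numbered 12 with library totals, 4 with genes of at least 10 CPM, and 0 with DESeq2, with the replicate block, with clusters 8 and 13 added and in cluster 8 alone, and 0 to 1 when one area was left out. The members called lower there numbered 2 with library totals, 2 with genes of at least 10 CPM, 1 in cluster 8 alone, and 3 to 13 when one area was left out, lowest without Vehicle 1+4. The 11 called members kept their direction in every alternative and only Psmd4 its call. In brain spots (0), taking all spots outside the tumour clusters called 1 lower (Psmc2), against 1018 lower and 81 higher of all 19916 genes. For the interaction (0), DESeq2 called 2 lower, against 2.57% of all genes, and library totals called 0. The replicate block left the tumour count at 8 lower; same-numbered areas had deviations correlated at 0.493 over the whole tissue, -0.169 in tumour and -0.149 in brain spots, and since no label says what a number marks and 2 areas a group are too few to show it, the numbers were not taken as pairs. A crossed pairing called 1 higher and 14 lower in tumour spots and 0 in brain spots. Over all genes it called 2168 higher and 4363 lower of 19493 in tumour spots, and 164 and 672 of 19297 in brain spots. The crossed pairing was added after seeing the data, like the alternatives with clusters 8 and 13. Over all genes in tumour spots, 2743 higher and 3546 lower compared with 8072 and 1400 under library totals, 466 and 3582 by DESeq2, 1048 and 1321 at 10 CPM or more and 750 and 1871 without Vehicle 1+4. Over the whole tissue, 224 higher and 1149 lower compared with 2920 and 685 under library totals, 825 and 2852 by DESeq2, 4749 and 4351 with the block, 0 and 0 at 10 CPM or more and 1209 and 3561 without TREAT 2+3. The planned region of tumour with reactive glia, macrophage and T cell clusters gave no value, since no cluster was so assigned. Only 2 areas a group, tumour spots from different clusters in TREAT and Vehicle, and the scaling limit what these data resolve, and genes near 1 CPM (Psma8 and Psmb11) rest on few UMIs. The cause of these changes was not tested.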
